A study of Mus musculus with 8 samples.

Results

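The mRNA found on the ribosomes of brown adipocytes in cold-exposed mice was described from 3 of the 8 libraries of a study of Ucp1-expressing fat cells. The 3 were chosen by their titles, BAT_1, BAT_2 and BAT_3, and are called replicates 1, 2 and 3. They came from interscapular brown adipose tissue (BAT) of 6-week-old females of the strain labelled C57B/6 UCP1-TRAP. The mice had been bred at 30 °C and weaned at 3 weeks into room temperature. From 4 weeks of age they lived at 4 °C for 2 weeks. In translating ribosome affinity purification (TRAP) a GFP-tagged ribosomal protein, L10a, is made only in chosen cells, and an antibody against GFP pulls down their ribosomes with the bound mRNA. Here the regulatory sequences of Ucp1 drive the tag, so cells without Ucp1 activity are not marked, and a cell's contribution can depend on how active Ucp1 is in it. Neither warm-housed mice nor unbound or total tissue RNA entered the description. No value below is therefore an effect of cold, or an enrichment over the tissue. The labels do not say whether the 3 libraries came from separate or pooled mice, so the spread between them may be partly technical. The white fat libraries of the study were not compared.

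Brown adipocytes burn fuel to make heat. Noradrenaline from sympathetic nerves acts on beta-adrenergic receptors, cyclic AMP rises, triglyceride stored in lipid droplets is broken down, and the fatty acids both feed mitochondrial oxidation and activate UCP1. UCP1 lets protons return across the inner mitochondrial membrane without passing through ATP synthase, so the respiratory chain runs fast and its energy leaves as heat. Prolonged cold is known to raise the number of mitochondria and the uptake of lipid and glucose in this tissue.

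The libraries were shallow and of similar depth. An estimated 350045, 382334 and 368509 fragments lay on listed transcripts in replicates 1, 2 and 3, which was 20.1 to 20.8 percent of the fragments that the authors' scaling counted. That count was itself estimated from FPKM and full transcript length, in genes with 1 transcript, over 50 fragments and over 1000 nt. Levels are given as the authors' FPKM, in principle the fragments of a gene per length and library size. By full transcript length a single fragment on 1000 nt would be worth 0.594, 0.543 and 0.547 FPKM. The deposited values did not follow full length exactly. In 2077 genes with 1 transcript and at least 20 fragments in each library, they were 1.01, 1.02 and 1.02 times the full-length value in the median. A median near 1 follows largely from how the count of the authors' scaling was estimated. The 5th and 95th percentiles reached from 0.679 to 1.65 over the libraries, so single genes departed from full length. The adjustment behind this is not given in the sources used here. Of 22552 genes listed, 5967 reached an FPKM of 1 in all 3 libraries, 8102 did so in at least 1, and 10105 were listed at 0 in all 3. A gene is called detected below where its mean FPKM was at least 1, which 7087 genes met. The tables held no transcripts of the mitochondrial chromosome, so the subunits it encodes are not analysed here.

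The markers of the label were all abundant. Ucp1 measured 1410, 1575 and 1313 FPKM and ranked 4th in every library. Fabp4, a fatty acid binding protein of all adipocytes, was at 3046, 2654 and 2505 FPKM. Cox8b, a cytochrome c oxidase subunit of brown fat and muscle, was at 1728, 1896 and 1332 FPKM. Cidea, a lipid droplet protein of brown adipocytes, was at 324, 292 and 373 FPKM. Markers of other cells held little of the FPKM: together 169 such genes held 0.112, 0.110 and 0.151 percent of the total. Of the 169, 22 were detected and 76 were listed at 0 in all libraries. Of all 22552 genes listed, 7087 were detected and 10105 were at 0, so the share at 0 was near that of all genes.

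The profile was concentrated on few genes. The 10 most abundant genes held 11.4, 11.6 and 11.6 percent of the total FPKM in replicates 1, 2 and 3 (11.5 ± 0.145 percent, mean ± SD, n = 3). The top 100 held 37.6 ± 0.793 percent, and the top 1000 held 76.2 ± 0.691 percent. It took 207, 193 and 207 genes to reach 50 percent of the total, and 2782, 2687 and 2913 genes to reach 90 percent. At the other end, the median detected gene had a mean of 3.82 FPKM, and only 211 genes reached 100 FPKM. The leading genes were much the same in each library: 8 genes were in the top 10 of all 3 libraries, 24 in the top 30 and 88 in the top 100.

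**Figure D1:**
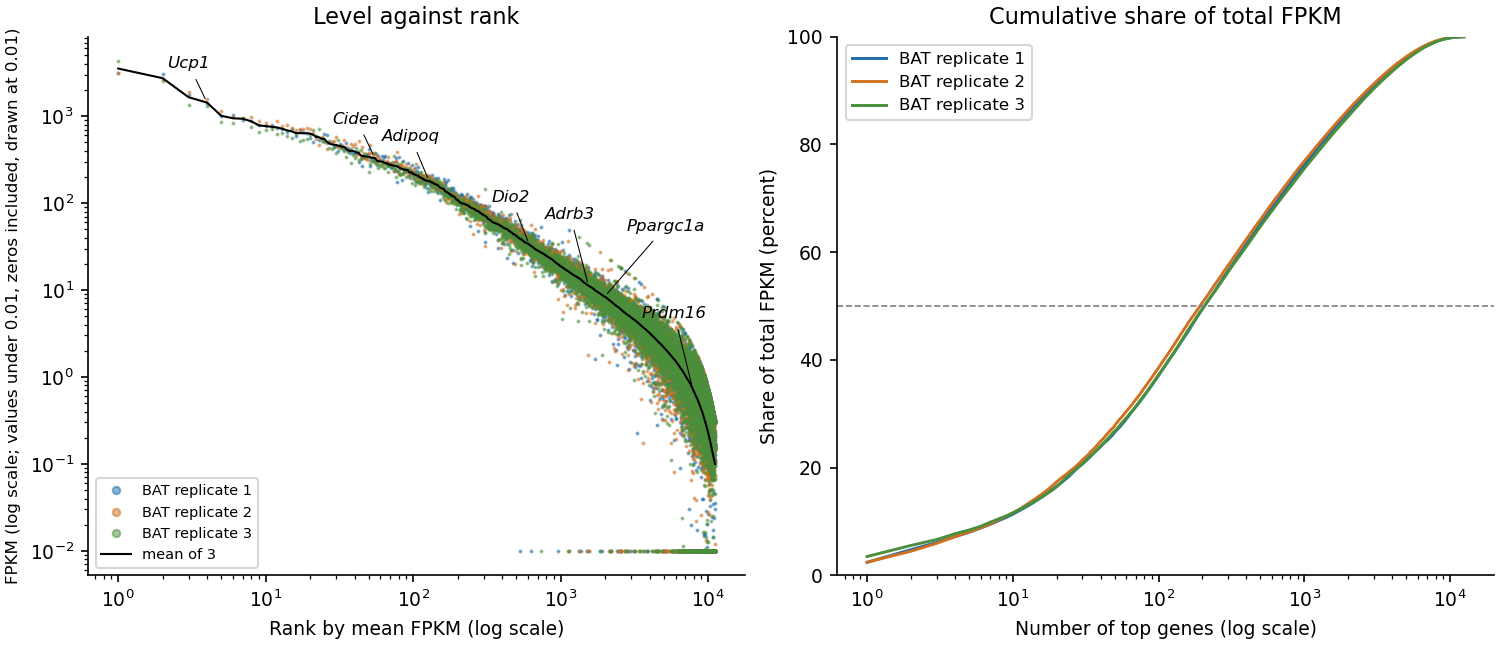
Left, FPKM of each library against the gene's rank by mean FPKM, both on log scales, with the mean of 3 libraries as a line and 7 genes named; values under 0.01, zeros included, are drawn at 0.01. Right, the cumulative share of total FPKM in percent against the number of top genes (log scale), where the curves of the 3 libraries lie close together and cross the dashed line at 50 percent between 193 and 207 genes.

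The ranking was headed by 5 genes, each with a mean of at least 1000 FPKM: Tmem38b, Fabp4, Cox8b, Ucp1 and Cox7a1. Tmem38b encodes TRIC-B, a cation channel of the endoplasmic reticulum that balances charge during calcium release. It measured 3128, 3175 and 4282 FPKM (3528 ± 653, mean ± SD, n = 3) and came first in every library as deposited. Its gene lies at chr4:53838917-53874890 on the plus strand of mm9. Replicate 3 stood above the other two. This first rank rests on the authors' adjustment of length. By full transcript length Tmem38b came to 2041, 2080 and 2744 and Fabp4 to 2540, 2179 and 2162, so that Fabp4 led in replicates 1 and 2 and Tmem38b in replicate 3. The means on that scale were 2288 ± 395 and 2294 ± 214. Tmem38b alone held 2.79 ± 0.620 percent of the total FPKM, and it also led by estimated fragments, with 9836, 10961 and 14358. It belonged to none of the functional lists used here.

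Fabp4 (chr3:10204343-10208576, minus strand, mm9) followed with a mean of 2735 ± 279 FPKM, or 2.15 percent of the total. The protein carries fatty acids through the cytosol. Cox8b (chr7:148084841-148086345, minus strand, mm9) averaged 1652 ± 289 FPKM. Ucp1 (chr8:85814247-85822355, plus strand, mm9) averaged 1432 ± 132 FPKM, or 1.12 percent of the total. Cox7a1, the heart and muscle form of another cytochrome c oxidase subunit, measured 1014, 1161 and 854 FPKM (1009.7 ± 153). In the deposited values the order of these genes was the same in all 3 libraries down to Ucp1. Cox8b and Ucp1 had overlapping ranges, although Cox8b was higher in each library. Below Ucp1 the order was loose. Of the 29 neighbouring pairs over the whole top 30, the ranges did not overlap in 3, all of them above Cox4i1, and the gene ranked higher led in all libraries in 6.

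Ranks 6 to 30 were filled mostly by small subunits of the respiratory chain. Of the 30 top genes, 19 encode subunits of complexes I to V or cytochrome c, among them Cox4i1 (945 ± 102 FPKM), Cox6a1 (871 ± 116) and Cox6b1 (782 ± 108), all of complex IV. Atp5b, the catalytic beta subunit of ATP synthase, was at 892, 962 and 947 FPKM. The others included Dbi, which binds acyl-CoA, with 770, 839 and 697 FPKM. Aldoa and Gapdh, both glycolytic, averaged 640 ± 48.9 and 610 ± 92.9 FPKM. Hadhb, a subunit of the trifunctional protein of beta-oxidation, averaged 630 ± 72.8 FPKM. Fabp3, the heart form of the fatty acid binding proteins, was at 537, 470 and 709 FPKM, highest in replicate 3. Apoc1, a small apolipoprotein, averaged 506 ± 97.2 FPKM, and Agpat2, which makes phosphatidic acid for triglyceride, 468 ± 49.0 FPKM. One entry, Tpt1p, carries a pseudogene's name and averaged 753 ± 35.4 FPKM while its parent gene Tpt1 was listed at 2.69 ± 0.404 FPKM. Reads of such near-identical copies cannot be assigned with certainty.

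**Figure D2:**
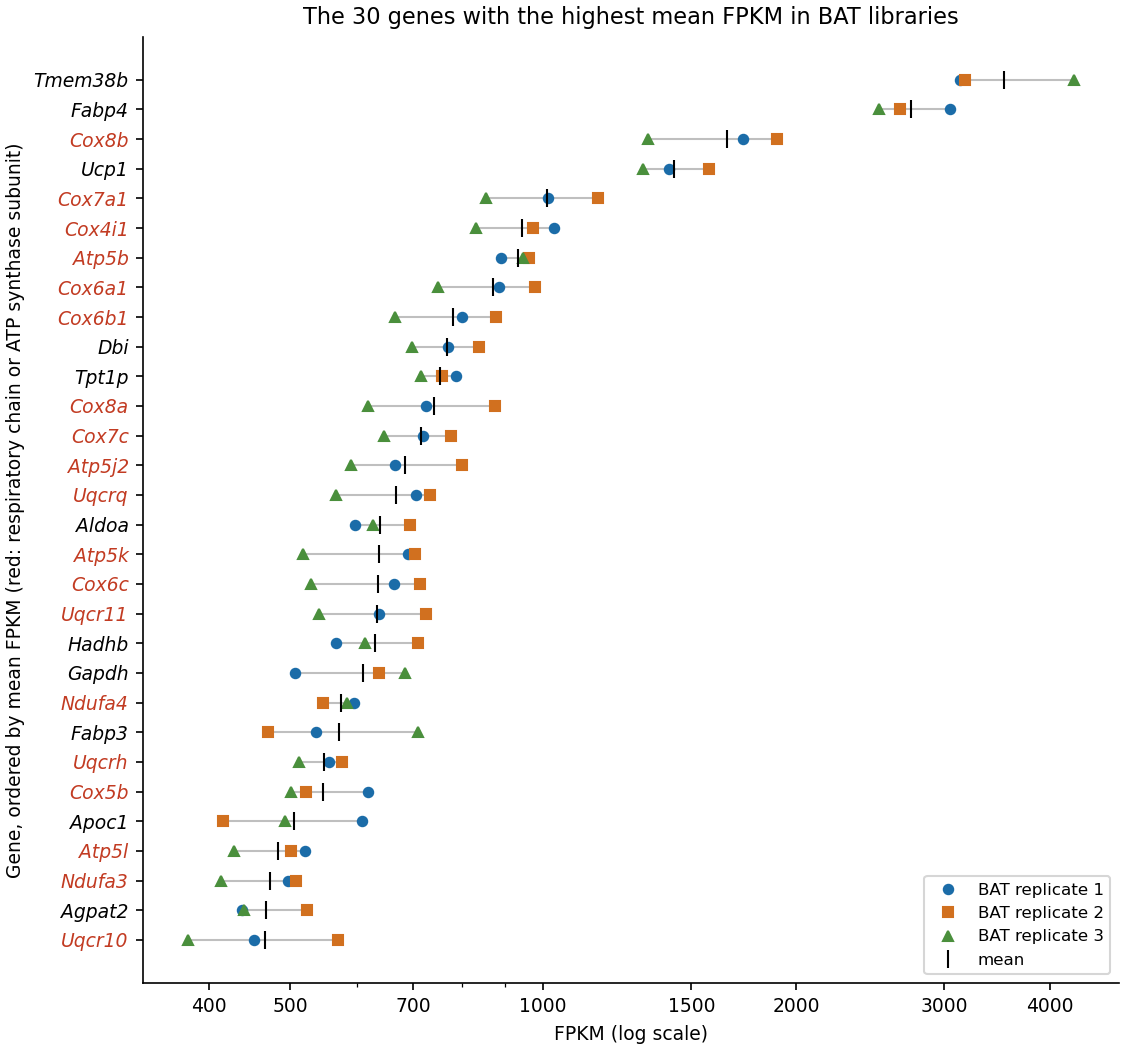
FPKM (log scale) of the 30 genes with the highest mean, ordered by that mean, with 1 symbol for each BAT library and a black tick for the mean; red names are subunits of the respiratory chain or ATP synthase. Tmem38b and Fabp4 stand at 2505 FPKM or more in every library, and replicate 3 is the lowest symbol for most of the red names.

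Oxidative phosphorylation held more of the FPKM than any other functional list. Its 88 nuclear-encoded genes held 20.6, 21.1 and 19 percent of the total FPKM (20.2 ± 1.07 percent, n = 3). Of these, 83 were detected, 69 reached a mean of 100 FPKM, and 43 were among the top 100 genes. Their median was 212 FPKM, beside 3.82 FPKM for all detected genes. Complex IV, which reduces oxygen to water, held 7.01 ± 0.600 percent with 18 genes. Complex I, the NADH dehydrogenase, held 5.21 ± 0.252 percent with 37 genes, all of them detected. Complex V, the ATP synthase, held 4.33 ± 0.237 percent, and complex III with cytochrome c held 3.11 ± 0.160 percent. Complex II, the succinate dehydrogenase shared with the tricarboxylic acid cycle, held 0.582 ± 0.0174 percent with 4 genes.

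Within complexes the levels differed. All 10 genes of complex III and cytochrome c ranked in the top 100, from Uqcrq (669 ± 89.2 FPKM) downward. In complex I, Ndufa4 (576 ± 25.5 FPKM), since reassigned to complex IV, and Ndufa3 (473 ± 51.9 FPKM) led, against a median of 155 FPKM. The 4 genes of complex II stayed within a narrow span, from Sdhc at 217 ± 14.4 to Sdhd at 146 ± 6.99 FPKM. Several subunits exist in tissue forms. Cox8b exceeded the ubiquitous Cox8a (741 ± 129 FPKM) by 2.38, 2.16 and 2.15 times in replicates 1, 2 and 3. Cox7a1 exceeded Cox7a2 (270 ± 27.9 FPKM) by 3.73 ± 0.220 times. For subunit VIa the opposite form prevailed, with Cox6a1 in the top 10 and the heart and muscle form Cox6a2 listed at 0 in all libraries. If those are counts of 0, 3 fragments over the 3 libraries would allow Cox6a2 up to 0.850 FPKM by full transcript length. Such a limit is approximate, since the deposited values depart from full length. Cox7b2 and Cox8c, known from testis, were also listed at 0. In complex V, Atpif1, the inhibitor that blocks ATP synthase from running backward, was listed at 0, 2.85 and 0 FPKM, which is 3 fragments in all. Ucp1 stood at 1.54 ± 0.131 times the level of Atp5b.

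The promoters of 4 of these genes are shown because they cover Ucp1, whose regulatory sequences drive the ribosome tag, the tissue form Cox8b with its ubiquitous partner Cox8a, and Cox6a1, another ubiquitous subunit of complex IV. Each is the 250 bases before the start site that RefSeq gives on GRCm38.p6, 5′ to 3′ on the strand of the gene. Capitals mark every match to the motifs searched.
Ucp1, chr8:83290098-83290347, plus strand: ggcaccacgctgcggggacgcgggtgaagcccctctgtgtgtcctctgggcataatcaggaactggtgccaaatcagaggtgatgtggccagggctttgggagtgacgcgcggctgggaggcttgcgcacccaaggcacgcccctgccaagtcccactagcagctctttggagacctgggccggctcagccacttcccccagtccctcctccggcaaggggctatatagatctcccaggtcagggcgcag
Cox8b, chr7:140900447-140900696, minus strand: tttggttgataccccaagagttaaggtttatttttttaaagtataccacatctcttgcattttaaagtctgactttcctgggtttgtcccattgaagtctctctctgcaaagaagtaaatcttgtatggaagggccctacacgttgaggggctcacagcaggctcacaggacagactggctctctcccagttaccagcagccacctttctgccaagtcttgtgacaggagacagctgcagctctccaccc
Cox8a, chr19:7217617-7217866, minus strand: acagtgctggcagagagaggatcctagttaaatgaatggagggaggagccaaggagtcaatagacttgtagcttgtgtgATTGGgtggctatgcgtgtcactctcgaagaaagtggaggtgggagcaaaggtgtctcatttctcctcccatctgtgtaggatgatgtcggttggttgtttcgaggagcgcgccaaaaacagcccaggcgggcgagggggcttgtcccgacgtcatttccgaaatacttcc
Cox6a1, chr5:115348959-115349208, minus strand: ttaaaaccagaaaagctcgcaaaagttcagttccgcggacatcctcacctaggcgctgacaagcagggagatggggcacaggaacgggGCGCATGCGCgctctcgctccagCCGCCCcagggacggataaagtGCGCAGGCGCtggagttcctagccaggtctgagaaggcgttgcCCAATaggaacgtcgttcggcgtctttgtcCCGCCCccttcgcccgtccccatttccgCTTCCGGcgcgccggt
The Cox8b window held 1 CpG and the Cox8a window 11. Ucp1 had 12 CpG and Cox6a1 had 26. No motif matched in Ucp1 or Cox8b. Cox8a had a CCAAT box. In Cox6a1 the NRF1, ETS, GC box and CCAAT motifs all matched. A match describes letters only, and its absence says no more than that these letters are not in the window.

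Both strands were searched for the TATA box (TATAAA), NRF1 (GCGCA, any base, GCGC), the ETS motif of GABPA (CCGGAAG), YY1 (AAGATGGCG), the estrogen-related receptor (TCAAGGTCA), the SP1 GC box (GGGCGG), the CCAAT box (CCAAT), the cAMP response element (TGACGTCA) and the direct repeat bound by PPAR (AGGTCA, any base, AGGTCA), with overlapping matches counted. Windows on chromosome 18 were left out. Windows were found for 71 of 85 oxidative phosphorylation genes above 0 and for 5670 of the detected genes. The whole table held 27025 windows, with those of the smaller sets included. NRF1, a regulator of nuclear-encoded respiratory genes, matched in 18.3 percent of oxidative phosphorylation windows, in 10.2 percent of detected genes and in 3.86 percent of all. The cAMP response element matched in 7.04, 3.12 and 1.62 percent of the same sets, the first being 5 of 71 windows. Among other lists it matched in 10.7 percent for pyruvate and the tricarboxylic acid cycle and 9.68 percent for cytosolic ribosomal proteins. For mitochondrial ribosomal proteins it was 2.99 percent and for mitochondrial fatty acid oxidation 0 percent. The ETS motif was at 15.5 percent in oxidative phosphorylation genes and 16.7 percent in detected genes, and the GC box at 38 against 63.0 percent. Cytosolic ribosomal protein genes, with 62 windows, had the ETS motif in 30.6 percent and NRF1 in 1.61 percent. These shares were not tested against each other.

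Among the uncoupling proteins Ucp1 prevailed. It held 97.5 percent of the FPKM of the 3 uncoupling protein genes, with Ucp2 at 21.9, 38.9 and 38.1 FPKM and Ucp3 at 2.88, 4.28 and 3.29 FPKM. Genes of the proposed UCP1-independent heat cycles held little of the FPKM. The 17 genes of creatine and calcium cycling held 0.0552 ± 0.0109 percent, 7 were detected, and Ckmt1, Ckmt2, Gamt, Gatm, Pln and Sln were listed at 0. Of all 22552 genes listed, 7087 were detected and 10105 were at 0, so these 17 were detected no less often than all genes. For Ckmt2, the mitochondrial creatine kinase, 3 fragments by full length would allow about 0.377 FPKM, and for Gatm, which makes the creatine precursor, about 0.238 FPKM. Sln is a short transcript with a looser limit of about 1.08 FPKM. Atp2a2, the calcium pump SERCA2, led that list with 33.0, 24.0 and 25.2 FPKM. Ckb, the cytosolic creatine kinase, followed at 23, 6.28 and 14.1 FPKM, a wide spread.

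Fatty acid supply was led by Fabp4. The 23 genes that bind, take up or activate fatty acids held 4.00 ± 0.125 percent of the total FPKM, of which Fabp4 made up 53.7 percent. Lpl, the lipase that frees fatty acids from circulating triglyceride, was at 430, 397 and 384 FPKM. Cd36, a fatty acid transporter of the plasma membrane, was at 272, 344 and 300 FPKM, and Acsl1, which couples fatty acids to coenzyme A, was at 163, 203 and 182 FPKM. Fabp4 stood 5.68, 5.65 and 3.53 times above Fabp3 in replicates 1, 2 and 3. Stored fat was represented by 17 genes of the droplet coat and lipolysis, which held 1.10 ± 0.104 percent. Among its enzymes, Pnpla2, the adipose triglyceride lipase that starts lipolysis, was at 278, 280 and 274 FPKM, with the highest library 1.02 times the lowest. Lipe, the hormone-sensitive lipase, averaged 88.2 ± 7.43 FPKM and Mgll, which takes off the last fatty acid, 54.5 ± 1.73 FPKM. Of the coat proteins, Plin2 was at 233, 232 and 345 FPKM, Cidec at 99.0 ± 13.8 and Plin1 at 81.1 ± 14.2 FPKM.

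Mitochondrial fatty acid oxidation held 3.19 ± 0.179 percent with 35 genes, of which 33 were detected and 11 reached 100 FPKM. Acadm and Acadl, the medium- and long-chain acyl-CoA dehydrogenases, averaged 444 ± 24.3 and 347 ± 24.6 FPKM. Etfa and Etfb, which pass their electrons on, were at 330 ± 38.5 and 288 ± 5.13 FPKM. At the entry step, the carnitine palmitoyltransferase of muscle and brown fat, Cpt1b, was at 98.2, 96.4 and 104 FPKM. The liver form Cpt1a was at 2.45, 2.64 and 3.51 FPKM, so that Cpt1b stood 35.4 ± 5.35 times above it. The trifunctional protein is built from Hadha and Hadhb, yet Hadhb was 3.68 ± 0.245 times the level of Hadha (171 ± 15.8 FPKM) as deposited. For Hadhb the deposited values were 1.49, 1.66 and 1.71 times those by full transcript length, which averaged 389 ± 35.0. The ratio may therefore rest in part on the authors' adjustment of length. Peroxisomal genes, 39 in number, held 0.686 ± 0.0444 percent and were led by Ech1 (244 ± 15.9 FPKM) and Scp2 (186 ± 16.2 FPKM).

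Pyruvate entry and the tricarboxylic acid cycle held 3.10 ± 0.204 percent. All 31 genes were detected and 15 reached 100 FPKM. Both subunits of the mitochondrial pyruvate carrier were near the top of the list, Brp44 (now Mpc2) at 379 ± 16.2 FPKM and Brp44l (now Mpc1) at 302 ± 18.2 FPKM. Suclg1 and Sucla2, subunits of succinyl-CoA synthetase, were at 278 ± 11.6 and 275 ± 17.2 FPKM. Pdk4, the kinase that shuts off pyruvate dehydrogenase, was at 134, 207 and 197 FPKM. Glucose uptake and glycolysis held 2.03 ± 0.186 percent with 24 genes. The insulin-regulated transporter Slc2a4 was at 26.2, 28.8 and 31 FPKM and the ubiquitous Slc2a1 at 1.38, 0.830 and 0.831 FPKM. The 2 main subunits of lactate dehydrogenase were nearly equal, Ldhb at 203 ± 7.47 and Ldha at 181 ± 7.45 FPKM, and Ldhb was the higher in all 3 libraries.

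Genes of lipid synthesis were present at moderate levels. Triglyceride synthesis and glycerol handling held 1.42 ± 0.110 percent. Besides Agpat2, the list was led by Pck1, an enzyme of the route that makes glycerol 3-phosphate from pyruvate, at 296, 513 and 310 FPKM. Replicate 2 was the high one. Gpd1, which makes glycerol 3-phosphate from glycolysis, was at 323, 332 and 408 FPKM, and its mitochondrial partner Gpd2 at 51.7 ± 7.33 FPKM. Dgat2 and Dgat1, which add the last fatty acid, averaged 184 ± 15.9 and 75.8 ± 16.2 FPKM. Gyk, glycerol kinase, averaged 44.7 ± 2.77 FPKM. Fatty acid synthesis, desaturation and elongation held 0.764 ± 0.0988 percent, led by Hsd17b12 (166 ± 6.49 FPKM), an enzyme of chain elongation, and Thrsp (162 ± 27.0 FPKM), a lipogenic factor. Elovl3, the elongase known for its rise in cold brown fat, was at 61.0, 43.7 and 53.8 FPKM. Fasn, fatty acid synthase, was at 30.2, 69.1 and 72.3 FPKM and Scd1, the main desaturase, at 54.5, 106 and 110 FPKM. In both, replicate 1 lay well below the others.

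Signalling genes were modest in level. The 42 genes of adrenergic and cyclic AMP signalling held 0.543 ± 0.0745 percent. Of these 42, 25 were detected, beside 7087 of all 22552 genes. Gnas, the stimulatory G protein, made up 50.4 percent of the FPKM of the list with 265, 437 and 341 FPKM. Adrb3, the beta-3 adrenergic receptor of adipocytes, was at 10.8, 11.7 and 11.2 FPKM, its values close together. Adra1a averaged 7.83 ± 1.47 and Adrb1 3.12 ± 0.602 FPKM. The alpha-2 receptors Adra2a, Adra2b and Adra2c were listed at 0. Prkar2b, the regulatory subunit of protein kinase A of fat, was at 84.8 ± 17.3 FPKM, and Adcy3, an adenylyl cyclase, at 37.5 ± 4.31 FPKM.

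Regulators of brown fat identity held 0.271 ± 0.0206 percent with 41 genes. None reached 100 FPKM and 28 were detected. Of all 22552 genes listed, 211 reached 100 FPKM and 7087 were detected, so these 41 were detected more often than all genes. Cebpb (73.7 ± 15 FPKM), Esrra (38.1 ± 3.86 FPKM), Cebpa (30.2 ± 4.06 FPKM) and Pparg (28.4 ± 7.59 FPKM) were the most abundant transcription factors of the list. Dio2, the deiodinase that activates thyroid hormone, was at 38.5, 33.8 and 27.3 FPKM. Ppargc1a, the coactivator of mitochondrial genes, was at 4.93, 13.2 and 7.06 FPKM, with replicate 2 above the others. Ebf2, a brown lineage factor, averaged 4.54 ± 0.488 FPKM. Prdm16, a coregulator of brown fat identity, was at 0.478, 0.946 and 0.776 FPKM, on 7, 15 and 12 fragments. Zic1, a marker of classical brown fat, rested on 3, 2 and 1 fragments. Lhx8, another such marker, was listed at 0, which by full length would allow about 0.283 FPKM. At this depth low regulators could hardly be ranked.

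Secreted factors held 1.61 ± 0.0379 percent with 56 genes. Of these 56, 27 were detected, beside 7087 of all 22552 genes. The leading 4 members were Apoc1, Ctsd (278 ± 9.27 FPKM), Gpx3 and Psap (217 ± 9.30 FPKM). Adiponectin, Adipoq, was at 204, 188 and 145 FPKM, so that Fabp4 stood 15.4 ± 1.65 times above it. Leptin, Lep, had 1 fragment in replicate 1 and none in the others. Nrg4, a growth factor of brown fat, was at 23.9, 28.3 and 17.0 FPKM. Gpx3, the secreted glutathione peroxidase, was at 174, 387 and 235 FPKM. Among 55 antioxidant genes, which held 1.95 ± 0.0493 percent, Gpx4, which detoxifies lipid peroxides, led with 406, 525 and 398 FPKM, followed by the metallothionein Mt1 (212 ± 61.3 FPKM) and Sod1 (207 ± 48.1 FPKM). Iron handling held 0.794 ± 0.0270 percent, mostly through the ferritin chains Fth1 (333 ± 35.7 FPKM) and Ftl1 (230 ± 20.9 FPKM).

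The machinery of protein synthesis was uneven. The 86 cytosolic ribosomal protein genes held 5.38, 4.72 and 4.46 percent (4.85 ± 0.477 percent), with 83 detected and a median of 52.4 FPKM. The median of the oxidative phosphorylation genes was about 4 times as high. Rpl41 (396 ± 95.7 FPKM) was among the leading ones. Rpl10a, the gene of the protein that carries the tag in this mouse line, was at 216, 213 and 171 FPKM and ranked 6th among the ribosomal genes. How much of it came from the transgene was not tested. Mitochondrial ribosomal proteins held 1.35 ± 0.0336 percent, and all 76 genes were detected. Of the mitochondrial carriers and import genes, Chchd10 was far ahead at 397, 446 and 529 FPKM. This protein of the intermembrane space is linked to cristae. The next gene, Hspa9, a matrix chaperone, averaged 154 ± 22.1 FPKM.

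**Figure D3:**
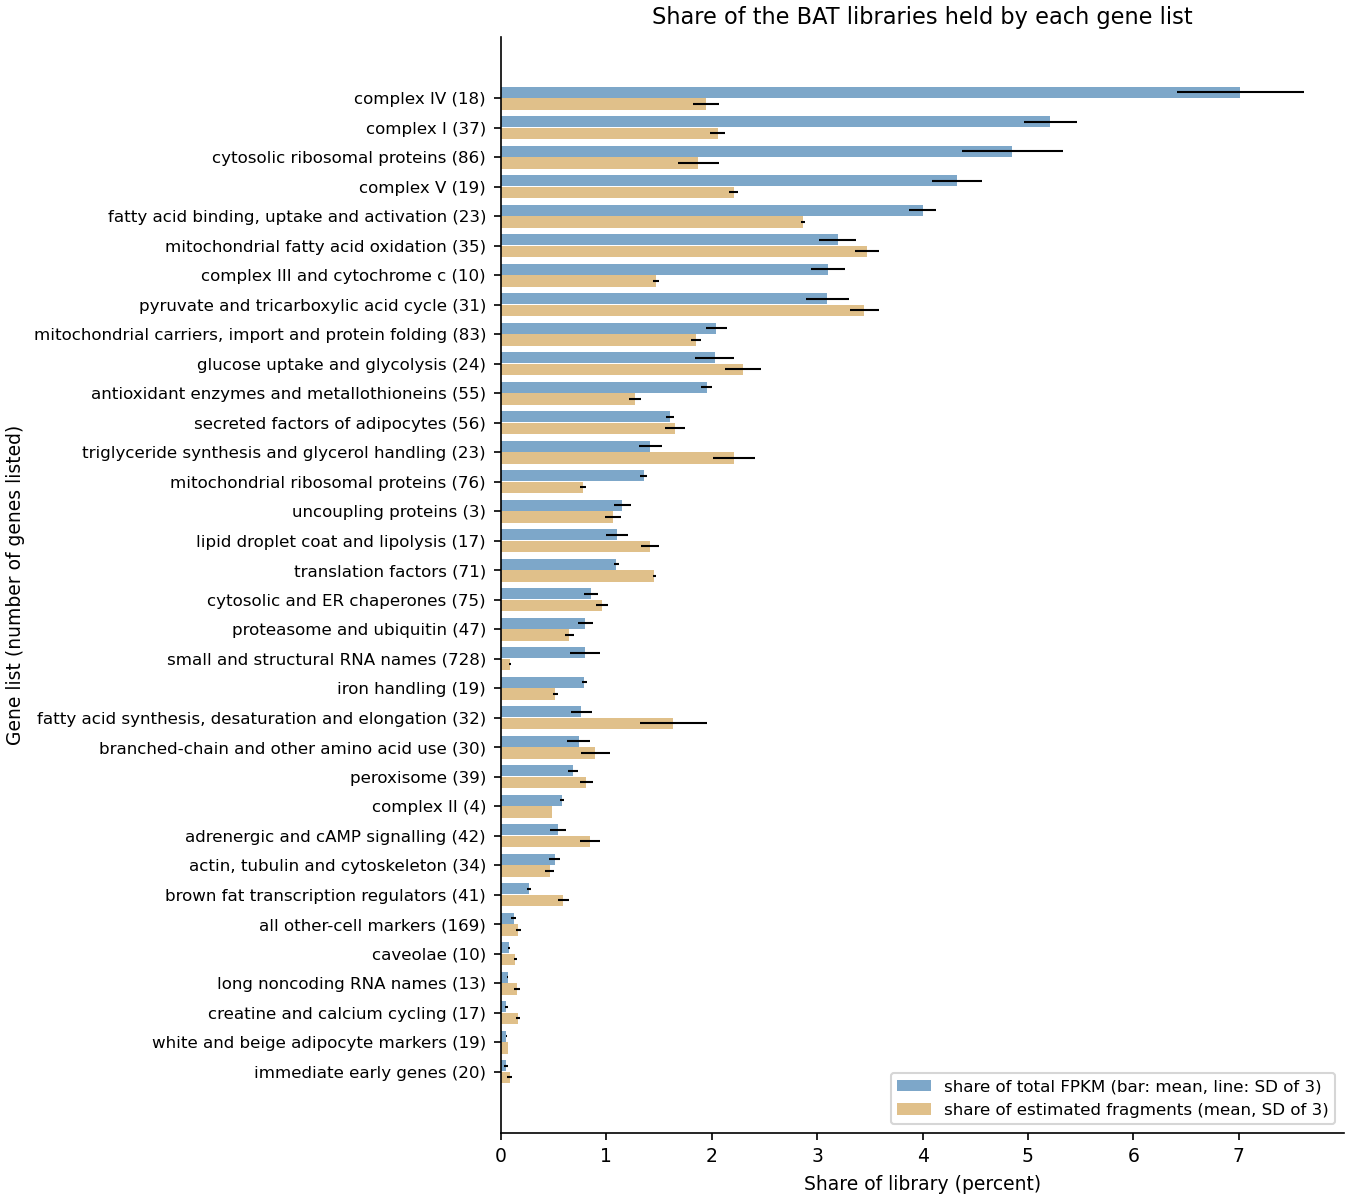
Share of each gene list in percent of total FPKM (blue) and of estimated fragments (tan), as mean with SD of the 3 BAT libraries, with the number of genes listed in parentheses. Among the lists drawn, complex IV leads by FPKM with 7.01 percent and mitochondrial fatty acid oxidation leads by fragments with 3.47 percent. Oxidative phosphorylation is drawn as separate complexes, which together held 20.2 percent of FPKM and 8.17 percent of fragments.

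All listed mitochondrial energy genes together, 316 in number, held 31.1 ± 0.999 percent of the total FPKM and 60 of the top 100 places. Genes in no list numbered 20546 and held 43.7 ± 0.756 percent. Among the top 100, 11 were in no list. Named after their values were seen, they were Tmem38b, Tpt1p, Cox17, Ifi27l1, Chchd2, Cib2, Atox1, S100a11, Bsg, Gm5506 and Mtrnr2l. Cox17 (395 ± 50.1 FPKM) and Atox1 (269 ± 57.8 FPKM) are copper chaperones, the first for complex IV. Chchd2 (343 ± 22.9 FPKM) is a paralog of Chchd10. Gm5506 (248 ± 56.9 FPKM) also has a listed transcript inside Eno1 (181 ± 31.3 FPKM), a gene of the glycolysis list. Reads shared by Gm5506 and Eno1 cannot be assigned with certainty, and the share of glycolysis leaves out Gm5506.

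Most markers of other cell types were low or at 0, and 4 of the 169 reached a mean of 10 FPKM. Of all 22552 genes listed, 1703 did so, 7087 were detected and 10105 were at 0 in all libraries. Skeletal muscle lies close to this fat pad and shares Cox7a1, Cox8b and Fabp3 with it. Of 35 further muscle genes, 3 were detected: Myl1 at 17.6, 13.0 and 10.4 FPKM, Des at 6.83, 7.77 and 7.39 FPKM, and Mb at 3.33, 0.561 and 7.75 FPKM. There were 17 at 0, including Atp2a1, Pvalb and Tcap, and the list held 0.0177 to 0.0246 percent of the FPKM. Of 17 epithelial and mammary gland genes, 16 were listed at 0 and 1 was detected, the milk protein gene Csn3 (kappa-casein) at 7.02, 13.1 and 22 FPKM, on 10, 17 and 27 fragments. Of 18 endothelial genes, 1 was detected, Egfl7 at 1.98 ± 0.435 FPKM. Macrophage genes reached 3.65 ± 1.48 FPKM for Lyz2, with 4 of 19 detected and Ptprc listed at 0. None of 15 lymphocyte genes was detected. In fibroblast and matrix genes, 6 of 24 were detected, with Sparc at 38.3, 36.3 and 42.2 FPKM the one above 10 FPKM. Of 14 smooth muscle and pericyte genes 1 was detected, Cspg4 at 1.60 ± 0.328 FPKM, with Tagln at 0. Hemoglobin genes stayed below 10 FPKM, with 3 of 10 red blood cell genes detected. Nerve and Schwann cell genes had 3 of 17 detected, and S100b was at 17.8, 25.6 and 26.7 FPKM while Sox10 was at 0. In bulk RNA of this kind, fewer cells of a type and less RNA per cell cannot be told apart.

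Markers that other studies use for beige or white fat held 0.0532 ± 0.00377 percent of the total FPKM. Of 19 genes, 4 were detected and 9 were listed at 0, beside 7087 and 10105 of all 22552 genes. The share at 0 was thus near that of all genes. Those at 0 included Tbx1 and Tmem26, for which 3 fragments by full length would allow about 0.315 and 0.111 FPKM. The leading gene of the 19, Slc36a2, was at 40.6, 44.1 and 43.5 FPKM. It is an amino acid transporter known as a surface marker of brown and beige adipocytes. Immediate early genes, which respond quickly to stimuli, held 0.0424, 0.0346 and 0.0687 percent. They were highest in replicate 3, where Atf3 reached 19.5 FPKM against 10.7 and 5.51.

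The ranking depended on dividing by length. The longest transcripts of the top 30 genes had a median of 539 nt and those of the top 100 a median of 845.5 nt, against 2506 nt over all detected genes. Genes under 500 nt held 13.0 percent of the FPKM and 2.83 percent of the estimated fragments. Genes of 4000 nt or more held 6.72 percent of the FPKM and 21.6 percent of the fragments. Across the 7087 detected genes the Spearman correlation of length with mean FPKM was -0.34, given as a description. By fragments the order after Tmem38b became Ucp1 (0.992 percent of fragments), Atp5b, Lpl, Fabp4, Pck1, Gpd1 and Cd36. By that measure 9 of the top 30 and 58 of the top 100 genes by FPKM were retained. The oxidative phosphorylation genes then held 8.17 percent and fatty acid oxidation 3.47 percent. FPKM approximates the number of transcripts and fragments the amount of RNA sequenced.

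**Figure D4:**
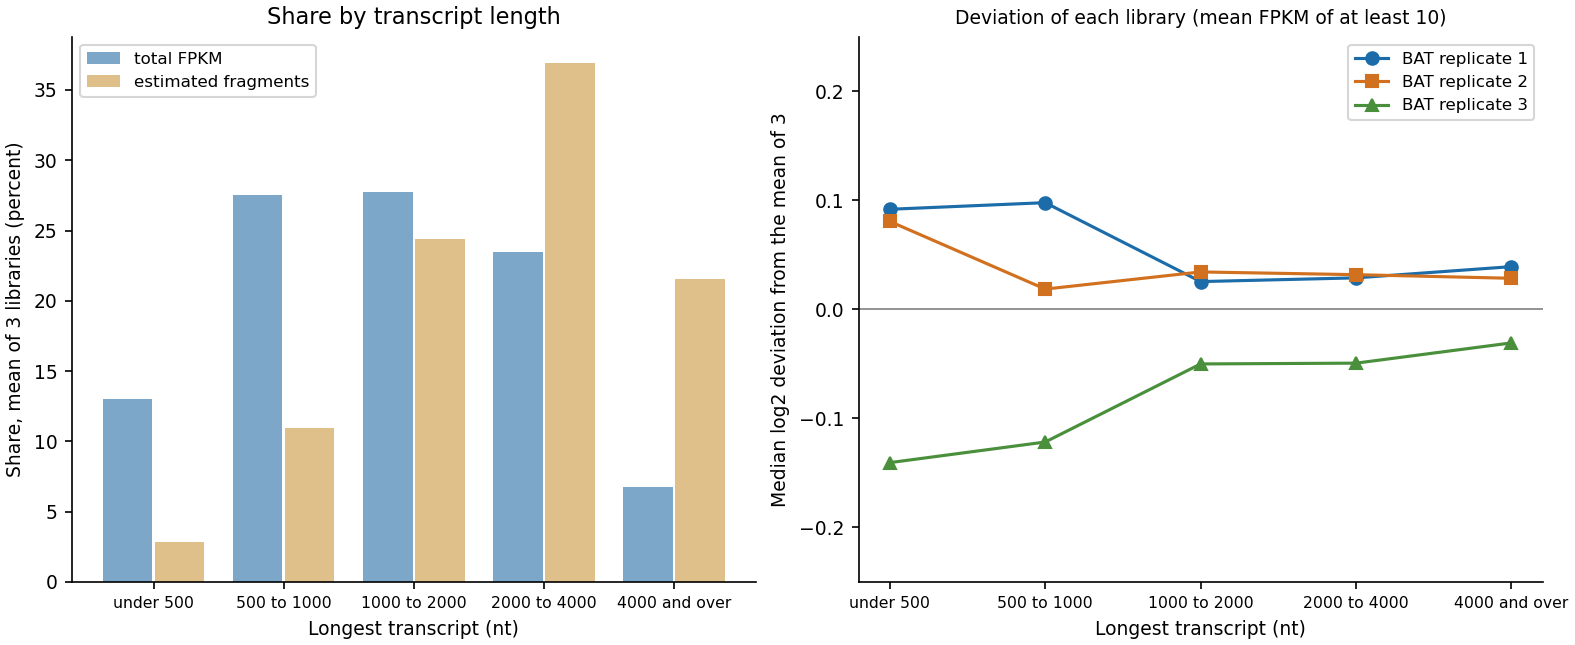
Left, the share in percent of total FPKM and of estimated fragments held by genes in 5 classes of longest transcript (nt), as means of 3 libraries. Right, the median log2 deviation of each library from the mean of the 3, for genes with a mean FPKM of at least 10: replicate 3 lies lowest in every class, from -0.14 under 500 nt to -0.03 at 4000 nt and over.

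Replicates agreed closely at high levels. On log2(FPKM + 1) over the 7087 detected genes, Pearson's r across genes was 0.943 for replicates 1 and 2, 0.936 for 1 and 3, and 0.936 for 2 and 3, given as a description since genes are not independent. Spearman's rho was 0.886, 0.877 and 0.874. In the same pairs 69.7, 69.5 and 69.2 percent of genes lay within 1.5-fold of each other. Among the 211 genes with a mean of at least 100 FPKM this was 93.8, 95.3 and 94.8 percent. The spread was close to counting error for low genes: with 3 to 10 fragments, the root mean square coefficient of variation was 48.0 percent against 42.9 percent from counting alone. With 300 to 1000 fragments it was 12.5 against 4.60 percent, so well-counted genes varied by more than counting error. In the 20 genes with 1000 fragments or more it was 16.5 against 2.54 percent.

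**Figure D5:**
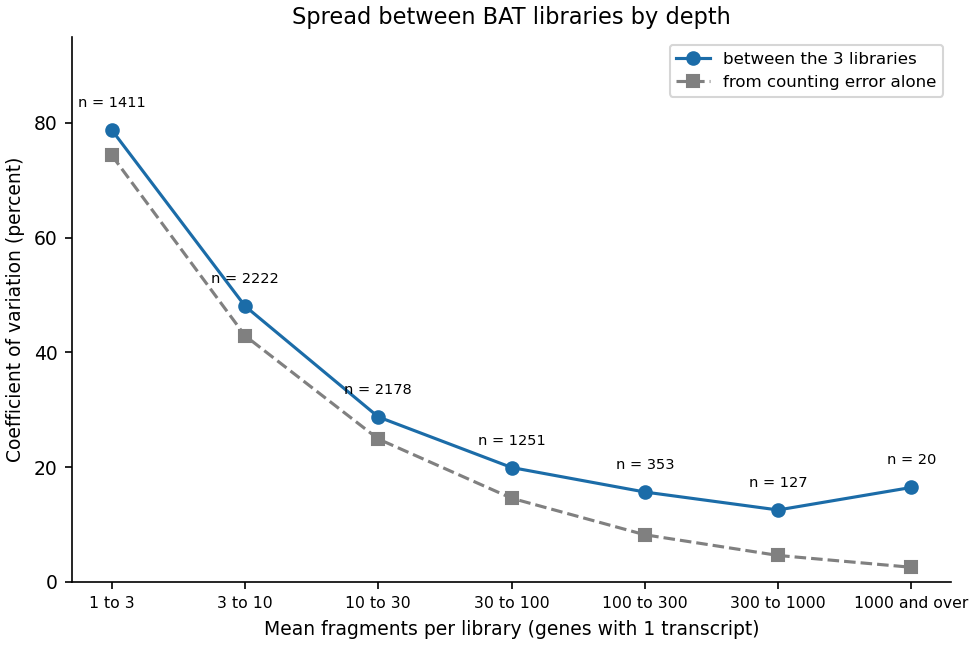
Root mean square coefficient of variation (percent) between the 3 BAT libraries (blue) and the value expected from counting error alone (grey), for genes with 1 listed transcript, by mean fragments per library. The lines lie close together at few fragments and part above 100 fragments, where the observed value stays between 12.5 and 16.5 percent.

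Replicate 3 was the lowest library most often, but not in every gene class. Of 432 genes with a mean of at least 50 FPKM, 225 were lowest in replicate 3, 116 in replicate 1 and 91 in replicate 2. For oxidative phosphorylation it was 48 of 76 in replicate 3, and for cytosolic ribosomal proteins 30 of 44. Among genes with a mean of at least 10 FPKM, 803 of 1703 were lowest in replicate 3, 441 in replicate 1 and 459 in replicate 2. By contrast, the lists lowest most often in replicate 1 included glucose uptake and glycolysis (9 of 14) and fatty acid synthesis (9 of 17). They also included pyruvate and the tricarboxylic acid cycle (14 of 25) and mitochondrial fatty acid oxidation (13 of 26). Proteasome and ubiquitin genes were lowest in replicate 2 in 22 of 33 cases. Short genes deviated most in replicate 3, with a median of -0.14 (log2) under 500 nt and -0.05 from 2000 to 4000 nt. Many of the respiratory and ribosomal genes are short, and the part that length plays in their low values in replicate 3 was not tested. Ribosomal genes were highest in replicate 1 in 32 of 44 cases, beside 173 of all 432. The amino acid genes, led by Glul (glutamine synthetase, 327, 233 and 240 FPKM), were highest in replicate 1 in 16 of the 20 with a mean of at least 10 FPKM, beside 682 of all 1703 such genes.

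Few abundant genes varied widely. The median ratio of highest to lowest library over the 432 genes was 1.27, 70 genes (16.2 percent) exceeded 1.5, and 7 (1.62 percent) exceeded 2. The 10 with the largest ratio were Snord104, Rnu12, Hist1h1c, Rn4.5s, Fasn, Gpx3, Scd1, Rpl17, Rab7 and Rpl18. Snord104, Rnu12 and Rn4.5s are small RNAs, and Snord104 rested on 1, 1 and 5 fragments. Hist1h1c, a linker histone, was at 111, 44.1 and 103 FPKM, lowest in replicate 2. The remaining ones include the lipogenic enzymes Fasn, on 638, 1686 and 1790 fragments, and Scd1, both lowest in replicate 1. Rpl17 and Rpl18 were lowest in replicate 3.

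Most leading genes were listed with 1 transcript. Of the top 100, 13 had several, and the leading transcript was the same in all libraries for 11 of these. It held under 90 percent in Aldoa, Ifi27l1, Gnas, Cd36 and Psap. For Aldoa the leading transcript took 82.2, 84.6 and 60.4 percent of the gene's FPKM, lower in replicate 3. For Cd36 a pair of transcripts that differ little in length took 50.1 ± 3.98 and 43.5 ± 3.18 percent. These divisions are the authors' estimates between overlapping transcripts.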

How the data were processed

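RNA bound to tagged ribosomes was sequenced from BAT in 3 libraries, grouped by title and tissue label. TopHat, Cufflinks and the build mm9 are named in the submitters' processing notes, and their versions and options were not given in the sources used here. The deposited tables, made by the authors for 1 library each, hold FPKM with confidence bounds for 28702 transcripts of 22552 genes. Transcript FPKM was added up per gene, and shares are of the summed FPKM of a library. Fragments were recovered from FPKM and its upper bound, taken as 2 counting SDs, and 91.1 to 92.1 percent of values under 20 fragments came out whole within 0.05. Genes with several transcripts were estimated from FPKM and full length, so the full-length alternative leaves them as deposited. Intervals and limits cover counting error only. Recovery and scaling were tested on simulated data whose bounds were made by the same rule. That checks the calculation and cannot show that the deposited bounds follow the rule.

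No groups were compared, so no test between groups was run. The named genes were the 30 with the highest mean, 16 fixed genes, the leading 4 members of each list, members at 0, the 10 most variable genes with a mean FPKM of at least 50, and top 100 genes whose leading transcript held under 90 percent. Paralogs, receptors and other members named beside these were chosen after their values were seen. A few genes taken by this rule are left unreported. The libraries and gene lists were chosen with earlier results of these data known. Promoter windows came from RefSeq (GRCm38.p6), with chromosome 18 left out. Alternatives were other detection minimums, pseudocounts and filters, short genes left out, the most abundant transcript, fragments in place of FPKM, other scalings, Tmem38b left out, fragments per full transcript length, and each library left out. Python 3.11.15, pandas 2.3.3, numpy 2.4.6 and matplotlib 3.10.9 were used.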

Additional observations from a re-analysis of the deposited data

How the results depend on the processing

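Apart from those that leave out a library, 90 alternative values were computed. Of these, 61 stayed within the spread between the 3 libraries (for counts, within 1.5 times) and 29 moved by more. Leaving out 1 of 3 libraries can hardly move a mean by more than that spread, so it is no check of stability. With a detection minimum of 0.1 FPKM 8999 genes were detected in all libraries, and with 5 FPKM 2455. The mean Pearson's r, 0.938 as reported, became 0.882 with a pseudocount of 0.1, 0.966 with 5, 0.969 with no filter, 0.933 at a mean of at least 5 FPKM, and 0.949 without genes under 300 nt. With the most abundant transcript the top 10 held 11.8 percent.

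Estimated fragments gave 9.02 percent for the top 10, 27.6 percent for the top 100 and 445.3 genes for 50 percent of the total. On that scale oxidative phosphorylation held 8.17, cytosolic ribosomal proteins 1.87, fatty acid binding 2.87, fatty acid oxidation 3.47, the tricarboxylic acid cycle 3.45 and glycolysis 2.30 percent. Length enters FPKM and not fragments by construction. Without Tmem38b, an alternative added after seeing the data, the top 10 held 9.59 percent, the top 100 36.0 percent, and 218.7 genes made 50 percent. With fragments per full transcript length, also added after seeing the data, the top 10 held 10.48 percent, the top 100 35.7 percent, and 224 genes made 50 percent. Oxidative phosphorylation then held 19 and glycolysis 2.30 percent, while Ucp1 averaged 1241, Cidea 386, Fabp4 2294 and Tmem38b 2288. Depth limits genes near 1 FPKM, which rest on few fragments. No paired analysis was possible because only 1 group was described and nothing was compared.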
